A study of Homo sapiens with 27 samples.

Results

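Cholesterol synthesis, uptake and its control by the sterol regulatory element-binding proteins (SREBPs) were followed in U937 cells, a human myeloid leukaemia cell line, through 31 genes. The genes were listed by name for their roles, with earlier results of these data known, and each of the 31 was matched to 1 of the 57905 gene identifiers of the deposited table. They comprise 7 genes of the mevalonate steps, 1 gene that feeds acetoacetate into them, 11 genes of the sterol steps that start at squalene, 5 genes of SREBP control, 3 genes of uptake control, transport and storage, and 4 genes of efflux and oxysterol sensing. The list does not hold every gene of the pathway.

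RNA-seq was performed on control cells and on cells that received matrine, a plant alkaloid, at 0.8 mg/ml. Treated cells were taken after 30 min or after 24 h, and each of the 3 groups had 3 libraries, 9 in all. The cells carried no engineered change and grew in RPMI medium with fetal bovine serum, a source of lipoprotein cholesterol, and the vehicle named in the study was ddH2O. The same 3 control libraries serve both times, and the time the control cells spent in culture is not given in the sources used here, so culture time and 24 h of matrine cannot be told apart. The libraries are labelled as replicates without naming separate cultures, so p-values measure the spread between these libraries, which may be technical.

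Animal cells build cholesterol from acetyl-CoA through mevalonate, isoprenoid pyrophosphates, squalene and lanosterol. When membrane cholesterol in the endoplasmic reticulum falls, SCAP escorts SREBP precursors to the Golgi, where proteases release the active factor, which enters the nucleus and switches on genes of synthesis and uptake. INSIG proteins hold SCAP in the endoplasmic reticulum when sterols are plentiful, and the liver X receptors (LXRs) answer to oxysterols by switching on efflux and by lowering uptake.

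Total counts per library lay between 17314931 and 21930018, and no pair of libraries within a group agreed within sampling noise. The myeloid genes SPI1, CD33 and LYZ were expressed in every library, at 54.4 to 73.0, 14.0 to 16.6 and 241 to 313 FPKM (fragments per kilobase of transcript, scaled to the mapped total of the library), while CD14, CD68 and CSF1R did not exceed 0.88 FPKM. The summed level of the 8 myeloid markers was 375.58 to 379.36 FPKM in the control, 369.7 to 397.1 FPKM at 30 min and 318.96 to 322.74 FPKM at 24 h. Within that list, LYZ made up most of the sum and went from 292 FPKM in the control to 244 FPKM at 24 h. SPI1 went from 67.6 to 56.0 FPKM and CD33 from 14.7 to 14.5 FPKM over the same comparison. ITGAM rose from 1.28 to 3.15 FPKM and MPO from 0.313 to 1.84 FPKM at 24 h, so the list did not move as a whole. The lymphoid markers MS4A1, CD3E and CD3D were at 0 in every library. The 3 erythroid markers summed to at most 0.03 FPKM per library, and the 4 epithelial and fibroblast markers to at most 0.07 FPKM. The part of a shift in cell state in the results below was not tested, and in bulk RNA fewer cells of a kind and less RNA per cell cannot be told apart.

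The sequences just upstream of the genes are shown first, because SREBPs act there together with the factors NF-Y, which binds CCAAT, and Sp1, which binds GGGCGG. The 250 bases before the start of transcription are given 5′ to 3′ on the strand of the gene from the RefSeq promoter table (GRCh38.p14). They are given for SREBF2, which encodes SREBP-2, for MSMO1, an enzyme gene with one of the highest fold changes at 24 h, and for PMVK, an enzyme gene that did not rise. SREBF2 lies at chr22:41832855-41833104 (plus strand), MSMO1 at chr4:165327419-165327668 (plus strand) and PMVK at chr1:154936720-154936969 (minus strand). Capitals mark matches on either strand to TCACNCCAC, a core of the sterol regulatory element, and to CCAAT, which reads ATTGG on the other strand.
SREBF2: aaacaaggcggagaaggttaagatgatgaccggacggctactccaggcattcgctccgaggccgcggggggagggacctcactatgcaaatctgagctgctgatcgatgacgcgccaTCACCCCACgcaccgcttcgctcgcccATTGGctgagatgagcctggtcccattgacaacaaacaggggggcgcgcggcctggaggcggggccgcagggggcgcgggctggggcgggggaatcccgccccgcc
MSMO1: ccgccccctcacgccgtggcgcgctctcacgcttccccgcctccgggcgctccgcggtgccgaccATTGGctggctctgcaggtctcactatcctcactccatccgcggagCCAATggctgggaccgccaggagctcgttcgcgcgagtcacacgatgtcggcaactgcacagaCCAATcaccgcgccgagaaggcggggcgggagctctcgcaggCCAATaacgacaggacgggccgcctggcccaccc
PMVK: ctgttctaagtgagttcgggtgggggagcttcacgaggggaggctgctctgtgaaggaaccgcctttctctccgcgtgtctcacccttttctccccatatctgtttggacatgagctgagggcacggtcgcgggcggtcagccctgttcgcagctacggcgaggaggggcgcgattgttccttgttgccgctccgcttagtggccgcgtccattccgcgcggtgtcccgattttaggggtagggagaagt

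The SREBF2 sequence holds the sterol regulatory element core at position -133 and 1 CCAAT match next to it, the MSMO1 sequence holds 4 CCAAT matches, and the PMVK sequence holds neither motif. RefSeq promoters were available for 27 of the 31 genes, as 36 promoters in all. CCAAT, searched on both strands, was present in the promoters of 15 of the 17 genes with a promoter that rose at 24 h (88.2%), and in 4 of the other 10 genes. Those 10 include HSD17B7 and ABCA1, which were not tested for a change, and HSD17B7 is 1 of the 4. The share was 37.0% over the 27305 genes of the promoter table, 41.5% over the 8584 tested genes with a promoter and 44.4% over the genes that rose at 24 h. At least 2 matches to CCAAT were found in 10 of the 17 genes (58.8%), against 15.7% of tested genes. The TCACNCCAC core was found in 1 of the 17, SREBF2, and in 1.15% of tested genes. GGGCGG was found in 16 of the 17, in 10 of the other 10 members and in 75.5% of tested genes. CACGTG, an E-box, was found in 2 of the 17 (11.8%), in 2 of the other 10 members and in 11.8% of tested genes. The 17 genes had 1.47 promoters each and tested genes 1.43. These shares describe letters in a window and are not evidence of binding.

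Expression at 30 min was compared with the control to ask which genes had responded early. None of the 27 members tested was called higher or lower, where 0.0949% of all 11587 tested genes were called higher and 0.544% lower. A gene was tested when its mean over the 6 libraries compared was above 1 FPKM, and it was called at a 1.5-fold or larger change with an adjusted p below 0.05 (edgeR quasi-likelihood test, Benjamini-Hochberg adjustment over all genes tested). The log2 fold changes of the members lay between -0.45 and 0.10, with a median of 0.0034, beside a median of -0.0043 over all genes tested. At an unadjusted p below 0.05 there were 5 members on the lower side and 0 on the higher side, where 7.29% of all tested genes were lower and 3.79% higher by the same rule, and DESeq2 also called 0 members in either direction.

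INSIG1, whose product retains SCAP in the endoplasmic reticulum (ENSG00000186480, chromosome 7, 155297776 to 155310235, plus strand, GRCh38), was the 1 member with an adjusted p below 0.05 at 30 min. It stood at 31.59, 31.56 and 32.88 FPKM in the control libraries and at 25.8, 29.2 and 24.28 FPKM at 30 min. The 3 treated libraries lay below the 3 control libraries, with a log2 difference of -0.26 (SE 0.063, adjusted p = 0.0352, edgeR), short of the fold change threshold. Across the alternatives its adjusted p lay between 0.00491 and 0.152, and it was above 0.05 with limma, with the replicate block (0.061), with only the 6 libraries compared, and when any library other than the second control or second 30 min library was left out. MYLIP, a ubiquitin ligase that marks lipoprotein receptors for breakdown (ENSG00000007944, chromosome 6, 16129086 to 16148248, plus strand), stood at 13.87, 12.79 and 14.3 FPKM in the control and at 9.94, 11.55 and 11.36 FPKM at 30 min. Its groups did not overlap either, and its log2 difference was -0.31 (SE 0.080, adjusted p = 0.0577, edgeR).

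The lowest value at 30 min belonged to STARD4, a carrier of cholesterol between membranes (ENSG00000164211, chromosome 5, 111496033 to 111512590, minus strand). STARD4 was at 2.34, 2.15 and 2.74 FPKM in the control and at 1.56, 2.2 and 1.47 FPKM at 30 min, so the second treated library fell within the control range. Its log2 difference was -0.45 (SE 0.13, adjusted p = 0.0913, edgeR). Without that second library it was -0.63 (SE 0.12, adjusted p = 0.00475) and was called lower. The remaining members with an unadjusted p below 0.05 were MVK, the mevalonate kinase, at -0.23 (adjusted p = 0.269), and SC5D, a late sterol desaturase, at -0.35 (adjusted p = 0.0887). In both genes the treated libraries lay below the control libraries. Across the members the libraries of the groups overlapped in 23 of 27 genes, lay below the control in 4 and above it in 0, where 8.91% of all tested genes lay below and 4.89% above.

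**Figure D1:**
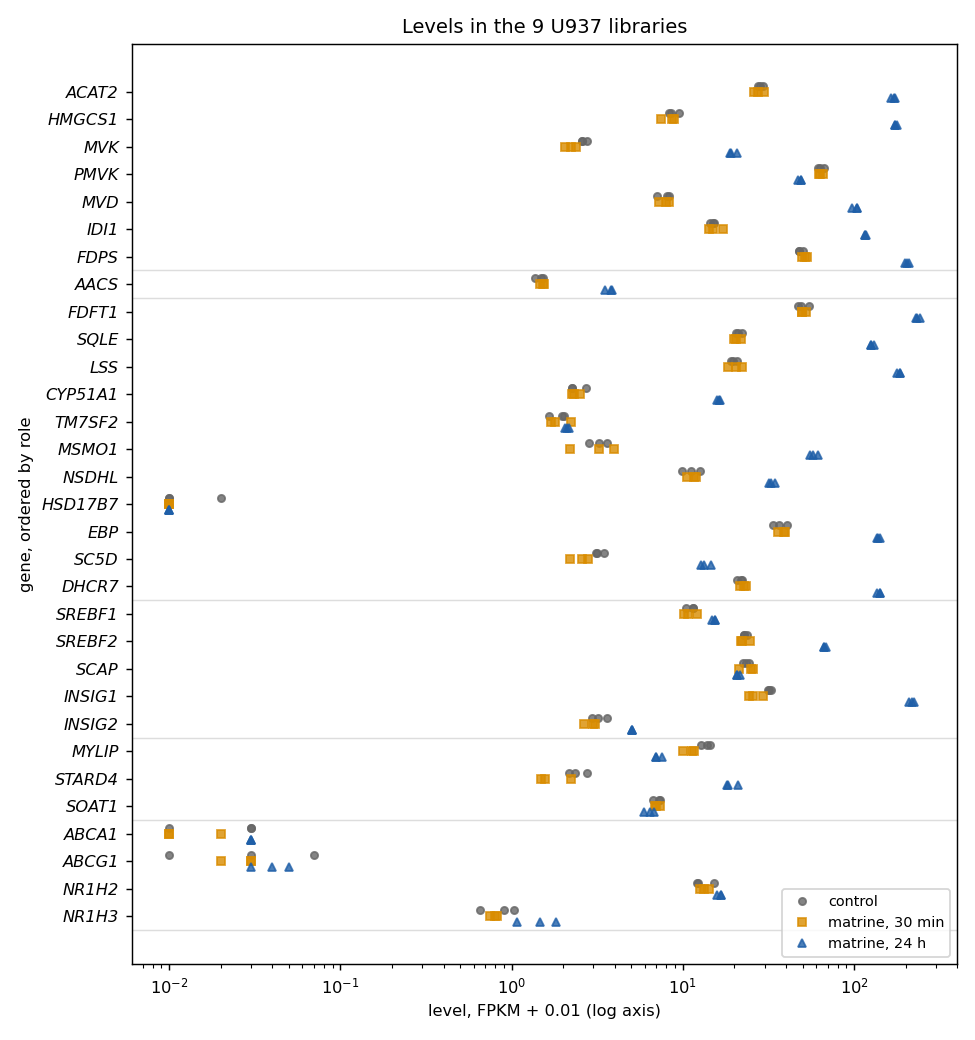
Level of each of the 31 genes in each of the 9 U937 libraries, in FPKM plus 0.01 on a log axis, with genes grouped by role and 1 point per library (grey circles control, orange squares 30 min, blue triangles 24 h). HMGCS1 went from 8.24 to 9.51 FPKM in the control to 173.3 to 178.69 FPKM at 24 h, while the 30 min points lie close to the control points in nearly every row.

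Expression at 24 h was then compared with the same control libraries. Of 28 members tested, 20 rose and 1 fell against the control, where 14.7% of all 12035 tested genes were called higher and 11.6% lower. The 20 include NR1H3, which passed the FPKM filter only through its 24 h level. The median log2 fold change of the 28 members was 2.01, and that of all genes tested was -0.0056. The 3 treated libraries lay above the 3 control libraries in 24 of the 28 genes, below them in 3 and overlapped them in 1, SOAT1, where 38.7% of all tested genes lay above and 31% below. HMGCS1, MSMO1, MVD and LSS ranked 8, 9, 14 and 28 by size of rise among the 12035 genes tested.

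**Figure D2:**
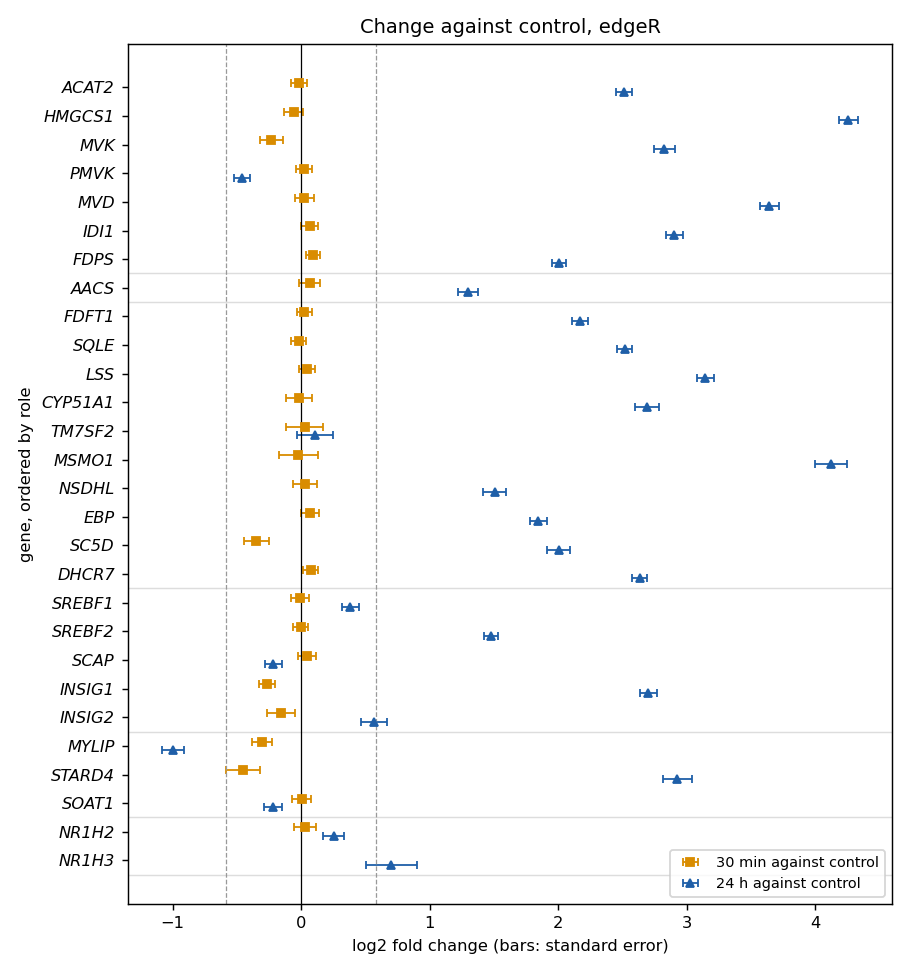
Log2 fold change of each tested gene against the control at 30 min (orange squares) and 24 h (blue triangles), both against the same 3 control libraries, with bars for the standard error from edgeR and dashed lines at the fold change threshold of 1.5. At 30 min the values lie between -0.45 and 0.10, and at 24 h they reach 4.26 in HMGCS1.

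Of the 7 genes of the mevalonate steps, 6 rose, with a median log2 fold change of 2.83 over the 7. HMGCS1, the cytosolic synthase that makes HMG-CoA (ENSG00000112972, chromosome 5, 43287470 to 43313512, minus strand in GENCODE coordinates of GRCh38), was at 9.51, 8.24 and 8.56 FPKM in the control and at 178.69, 173.3 and 173.77 FPKM at 24 h. This was the largest rise among the members, at a log2 fold change of 4.26 (SE 0.073, 19.1-fold, adjusted p = 4.95e-20, edgeR), and no 24 h library came near the control range. MVD, which decarboxylates mevalonate pyrophosphate (ENSG00000167508, chromosome 16, 88651935 to 88663161, minus strand), was at 7.08, 8.26 and 8.03 FPKM in the control and at 104.33, 96.45 and 103.93 FPKM at 24 h. Its rise was 12.5-fold, a log2 fold change of 3.64 (SE 0.072, adjusted p = 4.96e-19, edgeR).

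ACAT2, the acetoacetyl-CoA thiolase of the first step, rose from 28.4 ± 1.05 to 169 ± 4.56 FPKM (SD, n = 3), a log2 fold change of 2.52. MVK rose from 2.63 ± 0.12 to 19.5 ± 0.97 FPKM, a log2 fold change of 2.83. IDI1, which isomerises isopentenyl pyrophosphate, rose from 14.8 ± 0.37 to 116 ± 1.27 FPKM, a log2 fold change of 2.90. FDPS, the farnesyl pyrophosphate synthase, rose from 48.6 ± 1.65 to 204 ± 6.28 FPKM, a log2 fold change of 2.01. AACS, which activates acetoacetate in the cytosol and so feeds the same steps, rose from 1.44 ± 0.083 to 3.71 ± 0.17 FPKM, a log2 fold change of 1.30 (SE 0.078, adjusted p = 1.46e-11, edgeR).

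PMVK, the phosphomevalonate kinase between MVK and MVD, was the exception among the mevalonate genes. It was at 61.16, 66.24 and 62.76 FPKM in the control and at 48.63, 46.88 and 48.77 FPKM at 24 h. The 24 h libraries lay below the control libraries, and the log2 difference of -0.46 (SE 0.062, adjusted p = 1.93e-06, edgeR) did not reach the fold change threshold. In the control PMVK had the highest FPKM of the 31 genes, and at 24 h it ranked 14, while HMGCS1 moved from rank 17 to rank 5. The ratio of MVD to PMVK, both in FPKM, was 0.123 ± 0.0063 in the control (SD, n = 3), 0.123 ± 0.0061 at 30 min and 2.11 ± 0.047 at 24 h. Such ratios, 3 in all, were chosen after their values were seen and gave 9 comparisons. For each ratio the exact permutation test of 24 h against the control gave p = 0.1, two-sided, the smallest that 3 libraries against 3 allow, and 0.15 after adjustment.

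Of the 10 genes tested among the sterol steps, 9 rose, with a median log2 fold change of 2.34. MSMO1, which oxidises the C4 methyl groups of the sterol, was at 2.81, 3.21 and 3.57 FPKM in the control and at 61.36, 57.35 and 55.45 FPKM at 24 h. Its log2 fold change was 4.12 (SE 0.13, 17.4-fold, adjusted p = 2.63e-16, edgeR). At 30 min MSMO1 stood at 3.22, 3.94 and 2.17 FPKM, the widest spread of the tested members in that group (coefficient of variation 28.6%), which straddles the control range. LSS, which cyclises squalene epoxide to lanosterol (ENSG00000160285, chromosome 21, 46188141 to 46228824, minus strand), was at 19.15, 19.55 and 20.64 FPKM in the control and at 185.59, 178.05 and 184.4 FPKM at 24 h, a log2 fold change of 3.15 (SE 0.064, adjusted p = 5.1e-19, edgeR).

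The early sterol genes rose too. FDFT1, which joins farnesyl units into squalene, rose from 50.0 ± 3.72 to 235 ± 6.41 FPKM (SD, n = 3), a log2 fold change of 2.17. SQLE, the squalene epoxidase, rose from 21.2 ± 0.87 to 127 ± 3.73 FPKM, a log2 fold change of 2.52. CYP51A1, the lanosterol demethylase, rose from 2.40 ± 0.26 to 16.2 ± 0.37 FPKM, a log2 fold change of 2.69.

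The late steps rose as well. NSDHL, a C4 decarboxylating dehydrogenase, rose from 11.2 ± 1.42 to 33.1 ± 1.42 FPKM (SD, n = 3), a log2 fold change of 1.51 (SE 0.090), the smallest among the sterol genes that rose. EBP, the sterol isomerase, rose from 36.8 ± 3.43 to 138 ± 2.59 FPKM, a log2 fold change of 1.84. SC5D rose from 3.23 ± 0.20 to 13.5 ± 0.92 FPKM, a log2 fold change of 2.01. DHCR7, which makes cholesterol from its dehydro precursor, rose from 21.6 ± 0.82 to 140 ± 4.13 FPKM, a log2 fold change of 2.64. Differences in fold change between genes were not tested.

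TM7SF2, a C14 sterol reductase, was the 1 tested sterol gene that was not called. It was at 1.64, 1.97 and 2 FPKM in the control and at 2.14, 2.1 and 2.04 FPKM at 24 h, a log2 difference of 0.11 (SE 0.14, adjusted p = 0.524, edgeR). LBR, whose product carries out the same reduction, was lower, at a log2 difference of -0.49 (SE 0.074, adjusted p = 8.98e-06, edgeR). It did not reach the fold change threshold and was not called either. HSD17B7, a sterol ketoreductase, had 1 read in the 9 libraries together and was not tested. Its near-identical pseudogene copies HSD17B7P1 and HSD17B7P2 had 0 and 3 reads, and since the treatment of multiply mapped reads is not given in the sources used here, this is not evidence that the gene is silent.

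Summed over the 18 enzymes of the mevalonate and sterol steps, the level was 337.19, 360.59 and 338.86 FPKM in the control libraries and 1802.04, 1738.71 and 1794.64 FPKM at 24 h. This was a ratio of 5.15, and the share of all FPKM went from 0.116% ± 0.0026 to 0.605% ± 0.013 (SD, n = 3). At 30 min the sum was 350.2 ± 6.35 FPKM, against 346 ± 13.1 FPKM in the control. The exact two-sided permutation test gave p = 0.1 at 24 h, the smallest possible, and p = 0.6 at 30 min. The fold change did not follow the starting level closely. Spearman's rho between control FPKM and log2 fold change at 24 h was -0.077 over the 28 members and -0.34 over the 17 enzymes tested, a description over genes that share the same libraries.

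**Figure D3:**
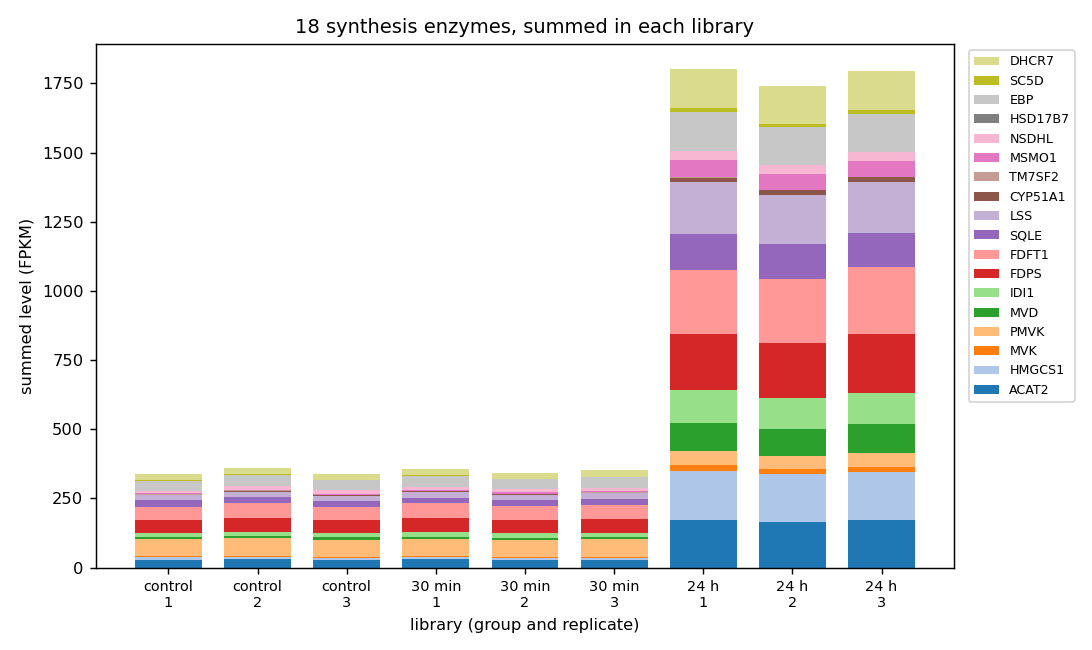
Summed level of the 18 synthesis enzymes in each of the 9 libraries, in FPKM from 0, with each colour the part of 1 gene. The 3 libraries at 24 h reach 1738.71 to 1802.04 FPKM, and the 3 control libraries stand at 337.19 to 360.59 FPKM.

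Of the 5 genes of SREBP control, 2 rose at 24 h. SREBF2, which encodes the SREBP that mainly drives cholesterol genes, was at 22.75, 22.74 and 23.8 FPKM in the control and at 66.63, 66.3 and 68.36 FPKM at 24 h. Its log2 fold change was 1.48 (SE 0.055, 2.78-fold, adjusted p = 1.01e-14, edgeR). INSIG1 reached 224.73, 209.51 and 217.27 FPKM at 24 h, a log2 fold change of 2.70 (SE 0.064, adjusted p = 4.7e-18, edgeR). INSIG1 thus lay below the control in the 3 libraries at 30 min and above it in the 3 libraries at 24 h.

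SREBF1, INSIG2 and SCAP were not called. SREBF1, whose products lean towards fatty acid genes, was at 10.47, 11.43 and 11.39 FPKM in the control and at 14.7, 15.28 and 15.3 FPKM at 24 h, a log2 difference of 0.38 (SE 0.067, adjusted p = 4.37e-05, edgeR) below the fold change threshold. INSIG2 was at 3.58, 3.18 and 2.95 FPKM in the control and at 5.02, 5.01 and 5.02 FPKM at 24 h. Its log2 difference of 0.57 (SE 0.10, adjusted p = 6.16e-05, edgeR) fell just short of the threshold, which is 0.58 on this scale. With that threshold kept, INSIG2 was called with library totals alone (0.63), with limma on log2(FPKM + 0.1), or without the first control library (0.64). SCAP had a log2 difference of -0.22 (SE 0.068, adjusted p = 0.00829, edgeR). In FPKM the ratio of SREBF2 to SREBF1 went from 2.08 ± 0.092 in the control (SD, n = 3) to 4.45 ± 0.099 at 24 h, and that of INSIG1 to INSIG2 from 9.96 ± 1.16 to 43.3 ± 1.47. These are the other two ratios of the permutation test above.

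Uptake control, transport and storage went in both directions. MYLIP was the 1 member that fell, to 7.56, 6.93 and 6.91 FPKM at 24 h, a log2 fold change of -0.998 (SE 0.082, adjusted p = 1.69e-09, edgeR). Its libraries at 24 h lay below those at 30 min, which in turn lay below the control. STARD4 rose to 20.85, 18.34 and 18.13 FPKM, a log2 fold change of 2.93 (SE 0.11, 7.60-fold, adjusted p = 1.27e-14, edgeR). SOAT1, which esterifies cholesterol for storage, was at 6.8, 6.4 and 5.88 FPKM at 24 h against 7.37, 6.72 and 7.19 FPKM in the control. These groups overlapped, and the log2 difference was -0.22 (SE 0.072, adjusted p = 0.0114, edgeR).

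The efflux genes were barely detected. ABCA1 and ABCG1, transporters that move cholesterol out of the cell and are textbook LXR targets, did not exceed 0.02 and 0.06 FPKM in any library and were not tested. NR1H2, the widely expressed LXR beta, had a log2 difference of 0.25 (SE 0.084, adjusted p = 0.0127, edgeR) at 24 h. NR1H3, which encodes LXR alpha, was at 0.64, 0.89 and 1.02 FPKM in the control and at 1.8, 1.46 and 1.06 FPKM at 24 h. The lowest 24 h library was only just above the highest control library, and the log2 fold change was 0.70 (SE 0.20, adjusted p = 0.00413, edgeR). NR1H3 passed the filter of 1 FPKM only through the 24 h group, with means of 0.85 FPKM in the control and 0.78 FPKM at 30 min. Its test was thus open only to a rise, and its call adds little to the counts of members that rose. The call was lost without the first control library or without the first 24 h library, at 0.52 in both cases. In the control and 24 h groups NR1H3 was the most variable of the tested members, with coefficients of variation of 22.7% and 25.7% against medians of 5.73% and 2.94%.

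**Figure D4:**
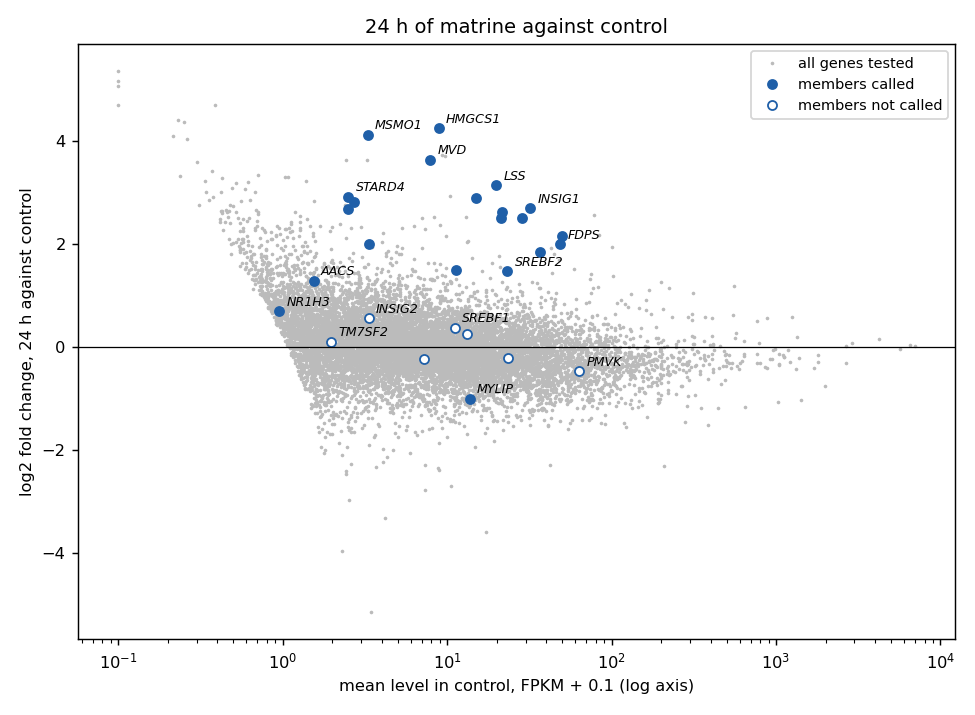
Log2 fold change at 24 h against the control for all 12035 genes tested (grey) by mean control level in FPKM plus 0.1 on a log axis, with the called members as filled and the others as open blue points. HMGCS1, MSMO1 and MVD lie near the upper edge of the cloud at their level, and MYLIP is the filled point below 0.

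The 24 h libraries were also compared with the 30 min libraries in place of the control, to test the difference between the times itself. This gave 21 members higher and 1 lower of 28 tested, where 15.7% of 11981 genes were called higher and 11.3% lower. The 21 also include NR1H3, which passed the FPKM filter only through its 24 h level. The median log2 fold change was 2.03, beside 0.022 over all genes tested. HMGCS1 differed by 4.32 and STARD4 by 3.38 on the log2 scale. INSIG2, which missed the threshold against the control, was called here with a log2 fold change of 0.72 (SE 0.10, adjusted p = 3.15e-06, edgeR). MYLIP differed by -0.69 (SE 0.083, adjusted p = 3.65e-07, edgeR).

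Further genes of sterol and lipid metabolism were read from 6 lists, of which 74 of 75 genes were matched, and 62 were tested at 24 h and 61 at 30 min. None was called at 30 min. The branch that uses mevalonate products for prenylation, ubiquinone and dolichol had 0 genes higher and 1 lower of 11 tested, with a median log2 fold change of -0.07. The gene that fell was PDSS1, which builds the ubiquinone side chain, from 20.7 ± 0.044 to 10.1 ± 0.50 FPKM (SD, n = 3), a log2 fold change of -1.09. None of the 14 genes of SREBP processing and sterol sensing was called at 24 h in either direction (edgeR with both thresholds), and their median was 0.07. By adjusted p alone 4 were higher and 4 lower, where 30.6% of all tested genes were higher and 32.7% lower by that rule. The Golgi proteases MBTPS1 and MBTPS2, also in this list, had log2 differences of -0.11 and 0.17 (adjusted p = 0.0894 and 0.077, edgeR).

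The list of uptake, lysosomal release and transfer had 5 genes higher and 1 lower of 13 tested, with a median of 0.24. STARD5, another sterol carrier of the START family, rose from 0.58 ± 0.085 to 1.80 ± 0.087 FPKM (SD, n = 3), a log2 fold change of 1.58. With a control mean of 0.58 FPKM, STARD5 passed the FPKM filter only through its level in the treated libraries. Its test was thus open only to a rise, and its call adds little to the count of 5 genes higher. NPC2, a lysosomal cholesterol-binding protein, rose from 43.2 ± 2.72 to 123 ± 4.42 FPKM, a log2 fold change of 1.45. GRAMD1A, a transporter of sterol from the plasma membrane, fell from 8.27 ± 0.20 to 5.41 ± 0.31 FPKM, a log2 fold change of -0.67. Esterification, oxysterols and side paths had 4 higher and 0 lower of 8 tested. Its largest rises were MMAB, an enzyme of cobalamin metabolism whose gene lies beside MVK, at 1.74, and TMEM97, a membrane protein regulated by sterols, at 1.64 on the log2 scale.

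The list of LXR target genes other than the members also held the receptor genes RXRA and RXRB. It had 1 higher and 0 lower of 6 tested, the phosphodiesterase gene SMPDL3A at a log2 fold change of 0.95. The fatty acid arm of SREBP-1 had 7 higher and 0 lower of 10 tested, with a median log2 fold change of 1.02. ACSS2, which makes acetyl-CoA from acetate, rose from 3.15 ± 0.25 to 40.9 ± 2.67 FPKM (SD, n = 3), a log2 fold change of 3.63. SCD, the stearoyl-CoA desaturase, rose from 78.0 ± 4.37 to 483 ± 6.72 FPKM, a log2 fold change of 2.57. Against the 14.7% of tested genes called higher and 11.6% called lower, these counts are a description of each list.

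**Figure D5:**
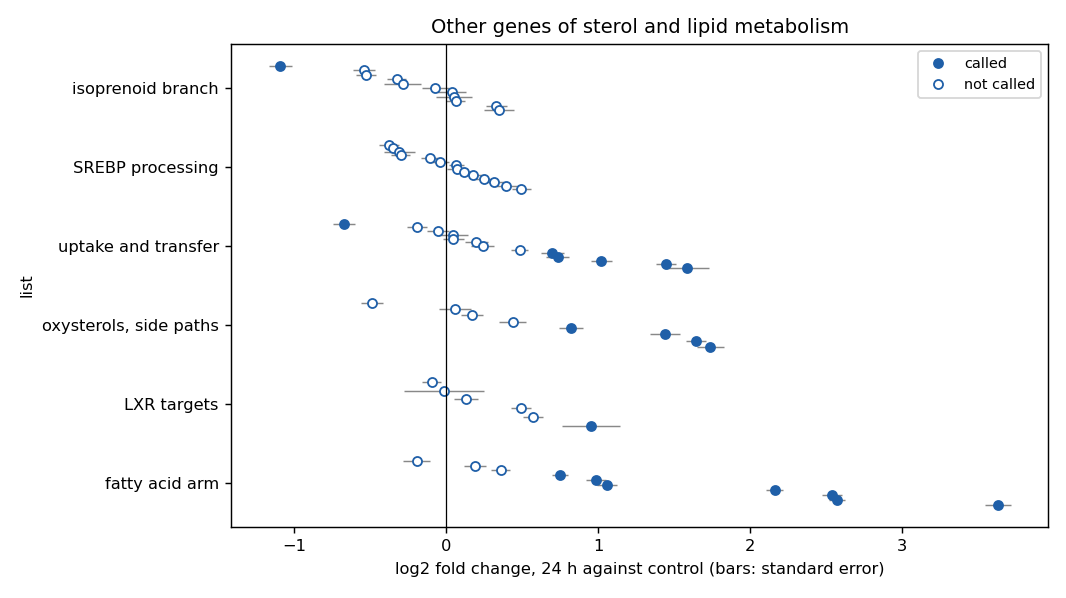
Log2 fold change at 24 h against the control of the tested genes in 6 further lists, 1 point per gene with its standard error from edgeR, filled where called. The fatty acid arm reaches 3.63 in ACSS2, while in the list of SREBP processing and sterol sensing there is no filled point.

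Some reads of these genes may belong to neighbours, since the strand setting of the counting is not given in the sources used here. Among the genes that rose, ACAT2, MVK, FDPS, LSS, CYP51A1, SREBF2, STARD4 and NR1H3 share exon bases with another gene that has a mean above 1 FPKM, in each case on the other strand. The neighbour of ACAT2 is TCP1, which had 10858 to 13281 counts in the control and 6444 to 6530 counts at 24 h, the opposite direction to ACAT2. The neighbour of MVK is MMAB, which rose with it, and the part of shared reads in either rise was not tested. TM7SF2 shares exon bases with VPS51 on the same strand and SREBF1 with RAI1 on the other strand.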

How the data were processed

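The data were the U937 part of an RNA-seq series of 27 samples; the HL-60 and K562 libraries were not analysed here. Per the study's methods, reads were mapped to hg38 with HISAT2 and counted with HTSeq, whereas the submitters' processing notes name GRCh37, with cutadapt 1.9.1, HISAT2 2.0.1 and HTSeq 0.6.1, so the build was not settled. The annotation, strandedness and treatment of multiply mapped reads are not given in the sources used here, and the methods name both poly(A) selection and rRNA removal. The authors deposited, for each gene and library, the unnormalized read count and an FPKM value rounded to 2 decimals. Counts were used for tests and FPKM for the filter and the printed levels.

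Symbols came from GENCODE release 44 for 51996 of 57905 identifiers. Counts were normalized with TMM and tested with the quasi-likelihood test of edgeR 4.0.16 (R 4.3.3) in a single fit of the 9 libraries per comparison, on genes with a mean FPKM above 1 over the 6 libraries compared. Genes were called at a Benjamini-Hochberg adjusted p below 0.05 with a 1.5-fold or larger change, and the standard error was taken as the log2 fold change divided by the square root of F. The scripts were tested on simulated data. Sums and ratios of FPKM were compared by exact permutation tests. Alternatives used DESeq2 1.42.0, limma 3.58.1 on log2(FPKM + 0.1) and log2(FPKM + 1), other scalings and filters, a replicate block, and each library left out. All 31 members are named; of each further list the 2 called genes with the largest rise and the 2 with the largest fall at 24 h are named, LBR and the proteases being named after their values were seen. The members and lists were chosen with earlier results of these data known. Some genes of the pathway and of the marker lists are not reported here.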

Additional observations from a re-analysis of the deposited data

Results flagged for a closer look

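Of the 28 members tested, 22 were called in edgeR's test of 24 h against 30 min, with both thresholds. Over all genes tested, 15.7% were called higher and 11.3% lower. Culture time and time with matrine cannot be told apart in this comparison. Values are the log2 fold change at 24 h over 30 min, and in INSIG2 and NR1H3 they are the smallest of those on the higher side. NR1H3 was tested only because its 24 h level lifted its mean above the filter.

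Among the mevalonate genes and AACS the differences were 2.53 for ACAT2, 4.32 for HMGCS1, 3.06 for MVK, 3.62 for MVD, 2.84 for IDI1, 1.91 for FDPS and 1.23 for AACS. Among the sterol genes they were 2.15 for FDFT1, 2.54 for SQLE, 3.10 for LSS, 2.71 for CYP51A1, 4.15 for MSMO1, 1.48 for NSDHL, 1.78 for EBP, 2.36 for SC5D and 2.56 for DHCR7. In SREBP control they were 1.48 for SREBF2, 2.97 for INSIG1 and 0.72 for INSIG2, and INSIG1 lay on opposite sides of the control at the 2 times. In transport and oxysterol sensing they were 3.38 for STARD4 and 0.81 for NR1H3. MYLIP, at -0.69, was the 1 member called lower at 24 h than at 30 min. Groups of 3 libraries are too small to search for single outlying libraries.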

How the results depend on the processing

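Every member called against the control at 24 h kept its direction under the alternatives run, and the number called higher lay between 18 (mean FPKM above 5) and 23 (no fold change threshold), with 20 by DESeq2. Leaving out 1 library in turn gave 19 to 20 members higher and 1 lower against the control, and 20 to 21 higher and 1 lower against 30 min. The cause of the changes below was not tested, unless the setting names it.

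The number of members called lower at 24 h became 0 with a fold change of at least 2, against either group, and 4 with no fold change threshold, against either group. With limma on log2(FPKM + 1) it was 0 against 30 min. At 30 min it became 1 with no fold change threshold (INSIG1), and lay between 0 and 1 when libraries were left out (STARD4, without the second 30 min library). The median log2 fold change against the control at 24 h was 2.07 with library totals alone, 2.05 with limma on log2(FPKM + 0.1), 1.79 with no filter and 2.42 with a mean FPKM above 5, and 1.98 to 2.04 with libraries left out. Against 30 min it was 2.10 with library totals alone, 2.10 with limma on log2(FPKM + 0.1), 1.78 with no filter and 2.53 with a mean FPKM above 5, and 1.99 to 2.16 with libraries left out. TMM over all genes of the table, an alternative chosen after seeing the data, gave 1.95 against the control and 1.96 against 30 min. At 30 min the median lay between -0.00036 and 0.055 with libraries left out. NR1H3 was no longer called at 24 h against the control with limma on log2(FPKM + 1), at 0.39, or with a fold change of at least 2.

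Same-numbered libraries deviated from their group means with correlations of -0.159 to 0.103, so the numbers were not taken to pair the libraries. With the replicate block 20 members were called higher and 1 lower at 24 h against the control, 21 and 1 against 30 min, and 0 at 30 min. Of all genes called at 24 h, 44.1% were lower with TMM, 43.5% with DESeq2's size factors and 36.6% with library totals alone, and against 30 min 41.9%, 43.2% and 32.2%.

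HSD17B7, ABCA1 and ABCG1 had 8 counts or fewer per library and were not tested for a change. The filter on mean FPKM left 28 of 31 members tested at 24 h and 27 at 30 min.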
